A study of Mus musculus with 4 samples.

Results

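The apoptosis regulators described here are the genes whose products start, carry out or block programmed cell death, as far as the array named them. A spot counted when its only annotated symbol began with Casp and a digit, Bcl2, Birc and a digit, or Bnip, or was 1 of a set of named regulators such as Bak1, Mcl1, Apaf1 and Diablo. The rule used symbols and no measured value, but it was chosen with earlier results of these data known. It found 38 genes on 60 spots, out of 10698 genes named by the array. Of these, 16 were classed as pro-apoptotic, 14 as anti-apoptotic and 8 in neither class because their role is mixed or lies elsewhere. Bax, Trp53 and Birc7 had no spot in the annotation used here and are not described.

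RNA came from CA1, a field of pyramidal neurons in the hippocampus, of young male C57BL/6J mice. MK C+S mice received MK-801, a blocker of the NMDA type of glutamate receptor, 1 h before contextual fear conditioning, and MK mice received MK-801 without conditioning. Conditioning was a stay of 2 min in a new chamber followed by a foot shock of 1 s at 0.5 mA, given 3 times in all. The labelled dose of MK-801, 300 micrograms per g of body weight, lies far above usual doses and is printed as labelled. All mice of both groups carried the drug, so no value here describes conditioning without it, and the drug was given to the whole body. MK C+S RNA was labelled with Cy5 and MK RNA with Cy3 on 1 array at each of 1, 2, 4 and 6 h after the last shock.

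The deposited value of a spot is a log ratio, read here as log10, a base that the labels do not state. Ratios above 0 probably stand for higher RNA in MK C+S, because Cy5 over Cy3 is the usual order, but the direction is not stated either. Fold values below follow from the log10 reading. No array has a replicate, so a value at a single time carries no error, and the dye and the group cannot be told apart because all arrays had 1 dye orientation. In such bulk tissue, fewer cells of a type and less RNA per cell cannot be told apart. Ratios carry no level, so the labelled CA1 origin could not be checked against marker levels.

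Apoptosis runs along a mitochondrial route and a death receptor route. On the mitochondrial route, BH3-only proteins such as Bim (Bcl2l11), Bid, Bad and Bik relieve the hold of Bcl2, Bcl2l1 and Mcl1 on the pore formers Bax and Bak1. Cytochrome c then leaves mitochondria and joins Apaf1 in the apoptosome, which activates Casp9. IAP proteins (the Birc genes and Xiap) restrain caspases or their upstream signals, and Diablo, also called Smac, leaves mitochondria with cytochrome c and neutralises IAPs. Death receptors act through Fadd and Casp8, with Cflar as a brake. In the hippocampus, NMDA receptor activity is known to favour neuronal survival, and blockers of the receptor are known to trigger apoptosis in the developing brain.

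Of the 38 genes, 11 reached 2-fold (0.301 on the log10 scale) in either direction on at least 1 array. They were 3 pro-apoptotic genes (Diablo, Apaf1 and Bcl2l11), 5 anti-apoptotic genes (Bcl2a1b, Bcl2a1c, Bcl2a1d, Birc3 and Cflar) and 3 of neither class (Bnipl, Casp12 and Casp14). Diablo stood farthest out, with ratios far below 0 at 2, 4 and 6 h. The other 27 genes lay between -0.28 (Bcl2l2) and 0.30 (Bik) at every time with a value. At 1 h, 3 of 35 members with a value passed 2-fold, against 8.47% of all measured genes. All 3 were positive, where 5.12% of genes were past 2-fold above 0 and 3.35% below it. At 2 h 2 of 38 passed, against 6.58% of genes, with 0 above 0 (2.44% of genes) and 2 below (4.14%). At 4 h 4 of 37 passed, against 7.07%, with 3 above 0 (2.49%) and 1 below (4.58%). At 6 h 7 of 38 passed, against 21.9%, with 4 above 0 (10.2%) and 3 below (11.7%). Among the 35 members with a value on all 4 arrays, 10 passed at 1 or more times, against 29.3% of genes, and 4 at 2 or more times, against 7.31%. No member passed in opposite directions at different times, which 2.37% of genes did. Most of these shares lie near those of all genes, and the counts rest on few genes, so they are read here as a description of single members.

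**Figure D1:**
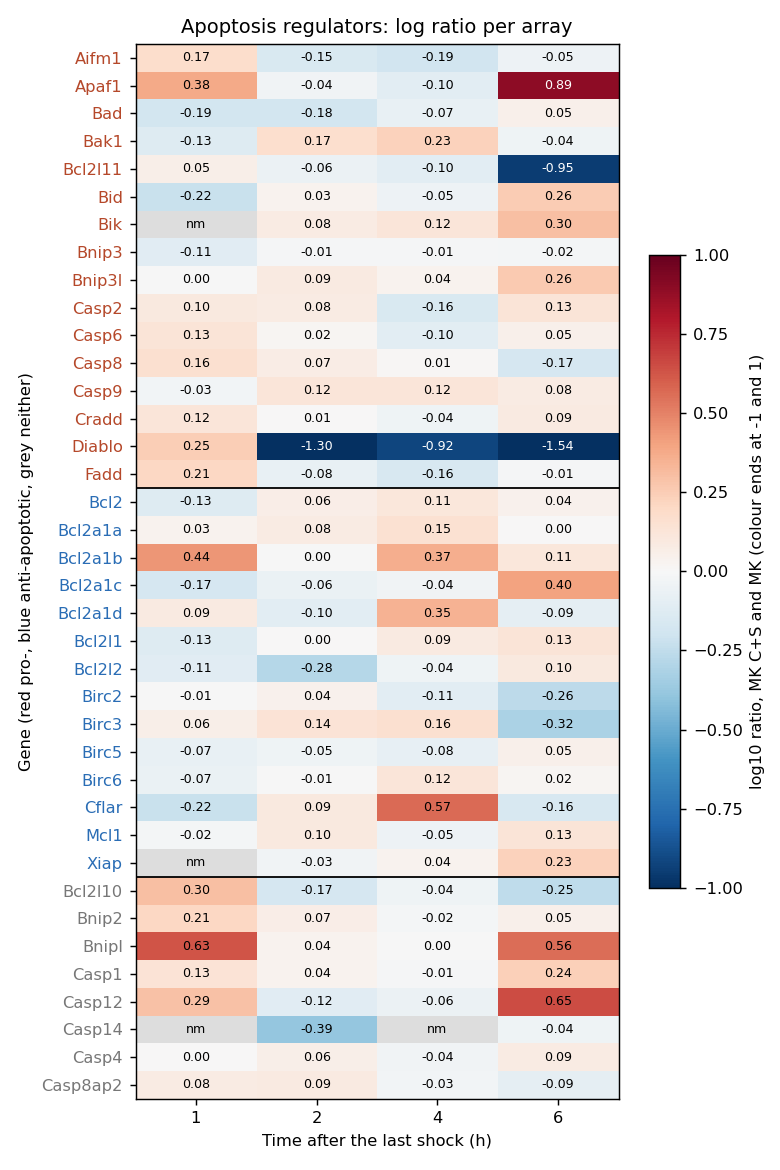
Log10 ratio of MK C+S and MK for each of the 38 genes (rows) on the array of each time (columns, h after the last shock), with the value printed in each cell and nm for no measured ratio. Most cells are pale, and the darkest are Diablo at 2, 4 and 6 h, Bcl2l11 at 6 h (-0.95) and Apaf1 at 6 h (0.89).

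Diablo, the antagonist of IAP proteins, gave log ratios of 0.25, -1.30, -0.92 and -1.54 on the 1, 2, 4 and 6 h arrays. The 1 h array was thus the only array above 0, and the 3 later arrays lay below 0 by 19.9-fold, 8.23-fold and 34.8-fold. Among all measured genes Diablo ranked 10th from the lowest of 10151 at 2 h, 26th of 10312 at 4 h and 19th of 10102 at 6 h. It was the 1 member past 2-fold at 3 or more times, which 1.36% of genes with 4 values were. The value rested on a single spot, number 16405. Up to 20 measured spots nearest to it in the spot numbering lay between -0.36 and 0.31 at 2 h, between -0.36 and 0.18 at 4 h and between -0.71 and 0.60 at 6 h. Diablo was therefore below every one of these neighbours at the 3 later times.

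The IAP genes themselves stayed closer to 0. Birc3, an inhibitor of death receptor signalling that is induced by NF-kB, had 0.057, 0.14, 0.16 and -0.32 at 1, 2, 4 and 6 h, and only the 6 h value passed 2-fold. Birc2, its close relative and neighbour on mouse chromosome 9, had -0.0078, 0.042, -0.11 and -0.26. Both were lowest at 6 h. The 6 h value of Birc2 came from 3 spots at -0.72, 0.032 and -0.094, so it rested mainly on 1 of them. Xiap, the direct caspase inhibitor, had no ratio at 1 h and gave -0.032, 0.036 and 0.23 at 2, 4 and 6 h. Birc5 (survivin), which also serves cell division, lay between -0.080 and 0.050. Birc6, a very large IAP that also acts as a ubiquitin ligase, lay between -0.067 and 0.12.

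Apaf1, the scaffold of the apoptosome, had log ratios of 0.38, -0.036, -0.10 and 0.89 in order of time, on 1 spot. It passed 2-fold on the first and the last array, at 2.37-fold and 7.84-fold, and was close to 0 between them. At 6 h it ranked 26th from the highest of 10102 genes, and its 18 measured neighbouring spots reached no higher than 0.47. Casp9, the caspase that Apaf1 activates, had -0.030, 0.12, 0.12 and 0.084 at the same times and passed 2-fold on no array. Aifm1, a mitochondrial protein that can act in death without caspases, had 0.17, -0.15, -0.19 and -0.051. At 6 h Diablo was thus far below 0 and Apaf1 far above it, with Casp9 and Aifm1 near 0.

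Among BH3-only genes, Bcl2l11 (Bim), a sensor of lost survival signals in neurons, gave 0.055, -0.061, -0.10 and -0.95 at 1, 2, 4 and 6 h. The 6 h value is 8.90-fold below 0, and it came from a single spot, because the other spot had no ratio on that array. The spot that was measured throughout read 0.0057, -0.14, -0.28 and -0.95, and the other 0.10, 0.021 and 0.076 at 1, 2 and 4 h. The first spot was thus lower at each later time, and the second stayed near 0. Bid, which links Casp8 to mitochondria, had -0.22, 0.034, -0.054 and 0.26, and Bad, which growth factor kinases hold inactive, had -0.19, -0.18, -0.071 and 0.047. Each of these 2 genes had 1 spot without a ratio at 1 h, so their times compare different spots. The Bad spot measured throughout was below 0 on all 4 arrays, at -0.19, -0.27, -0.085 and -0.13. The Bid spot measured throughout read -0.22, -0.00095, 0.018 and 0.12. Bik had no ratio at 1 h and gave 0.079, 0.12 and 0.30 afterwards. Its 6 h value lay just under the 2-fold limit.

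Bak1, which forms the mitochondrial pore, had -0.13, 0.17, 0.23 and -0.039, above 0 at 2 and 4 h and below 0 at the ends. Bnip3, a mitochondrial protein of hypoxia and mitophagy, was below 0 on all 4 arrays, at -0.11, -0.0092, -0.014 and -0.020. Bnip3l, its paralog, had -0.0015, 0.089, 0.039 and 0.26. The Bnip3 values are small, and the 3 later ones lie close to 0.

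**Figure D2:**
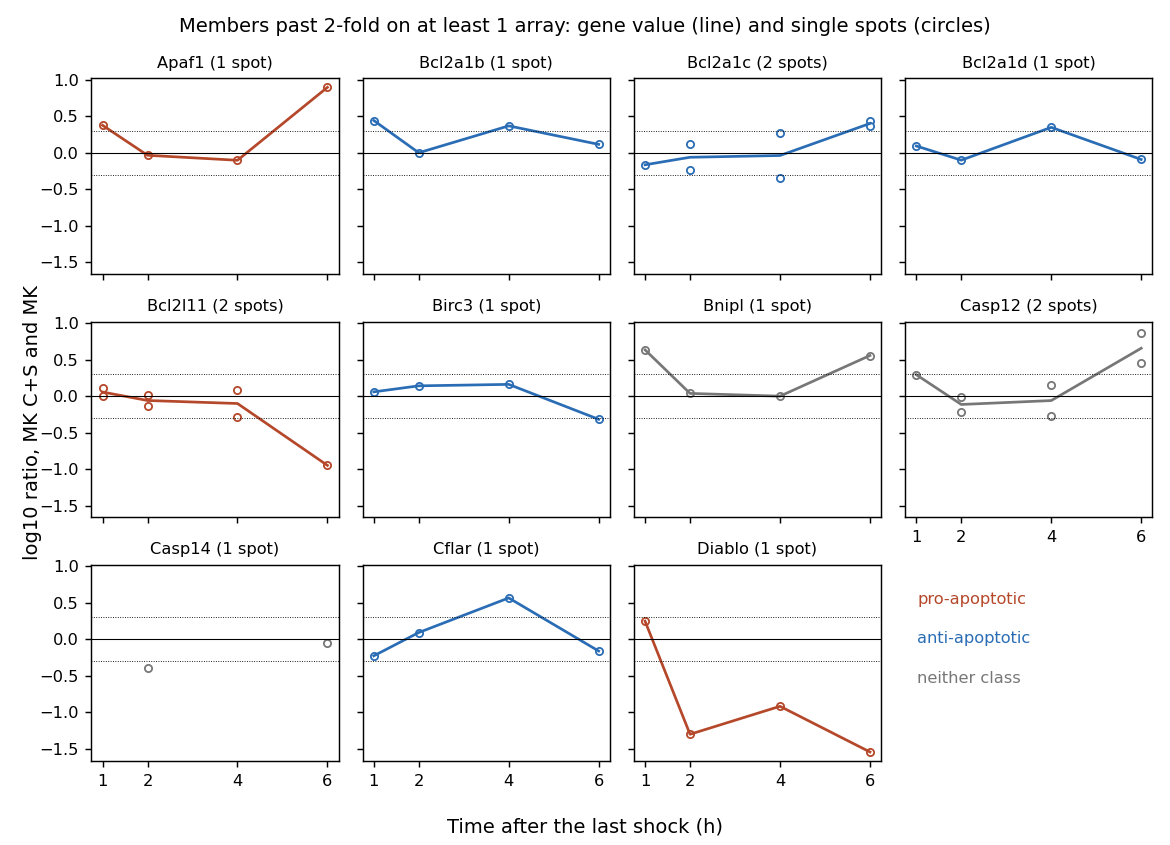
Log10 ratio (vertical axis) against h after the last shock for the 11 members past 2-fold on at least 1 array. Lines join gene values, circles are single spots, and dotted lines mark 2-fold; Diablo is the only panel with 3 values beyond them.

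The survival genes of the Bcl2 family with the best known roles in neurons were close to 0. Bcl2 had -0.13, 0.064, 0.11 and 0.042 at 1, 2, 4 and 6 h. Bcl2l1, which encodes Bcl-xL, the main survival protein of adult neurons, had -0.13, 0.0024, 0.091 and 0.13, and 1 of its 4 spots gave no ratio on any array. Both gene values were below 0 at 1 h and above 0 later, and neither passed 2-fold. For Bcl2l1 this order compares different spots, as 1 spot at -0.26 was measured at 1 h alone. The only Bcl2l1 spot measured on all 4 arrays read 0.0049, -0.040, 0.011 and 0.24. The 2 spots of Bcl2 had opposite signs at 2 and 6 h. Mcl1, a short-lived survival protein, had -0.021, 0.097, -0.051 and 0.13, and its 2 spots had the same sign on every array. Bcl2l2 (Bcl-w) had -0.11, -0.28, -0.041 and 0.10, where the 2 h value averaged spots at -0.63 and 0.068.

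The Bcl2a1 genes encode close copies of the survival protein A1, known from leukocytes. Bcl2a1d, Bcl2a1a and Bcl2a1b lie near each other on chromosome 9, and Bcl2a1c lies elsewhere on that chromosome. Probes for such copies may share targets, so the genes are uncertain as separate readings. Bcl2a1b had 0.44, -0.0014, 0.37 and 0.11, past 2-fold at 1 and 4 h. Bcl2a1d had 0.092, -0.10, 0.35 and -0.093, past 2-fold at 4 h. Bcl2a1a was above 0 on all 4 arrays, at 0.034, 0.084, 0.15 and 0.0028, and together with Bnip3 it was 1 of 2 members with a single sign throughout. Its sign at 6 h came with the centring, as that array had a median of -0.0054 before it. That is 2 of 35 members, against 21.8% of genes with 4 values. Bcl2a1c had -0.17, -0.063, -0.039 and 0.40, where 1 of its 2 spots had no ratio at 1 h and the spots read 0.26 and -0.34 at 4 h. At 4 h the 3 other copies were positive and Bcl2a1c was near 0. Markers of microglia, the leukocyte-like cells of the brain, were positive in 7 of 10 measured genes at 4 h, with a median of 0.13 and a range of -0.12 to 0.23, and in 6 of 10 at 1 h, with a median of 0.060 and a range of -0.18 to 0.25. At 2 h 5 of 10 were positive, with a median of -0.069, and at 6 h 7 of 10, with a median of 0.12. Bcl2a1a, Bcl2a1b, Bcl2a1c and Bcl2a1d had 0.0028, 0.11, 0.40 and -0.093 at 6 h. None of the markers passed 2-fold on any array, and their part in the Bcl2a1 values was not tested.

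On the death receptor route, Cflar (c-FLIP), the brake on Casp8, had -0.22, 0.094, 0.57 and -0.16 at 1, 2, 4 and 6 h. Only the 4 h value passed, at 3.70-fold, and it lay above all 16 measured neighbouring spots, the highest of which was 0.27. Casp8, the next gene to Cflar on chromosome 1 and the initiator caspase it restrains, had 0.16, 0.072, 0.014 and -0.17. The ratio of Casp8 was thus lower at each later time and did not follow the 4 h value of Cflar. Fadd, the adaptor between receptor and Casp8, had 0.21, -0.076, -0.16 and -0.0084, and its 1 h value averaged spots at -0.038 and 0.45. Cradd (RAIDD), the adaptor of Casp2, had 0.12, 0.0072, -0.045 and 0.088. Casp2 gave 0.096, 0.079, -0.16 and 0.13, and Casp6, an effector caspase linked to axon loss, 0.13, 0.021, -0.10 and 0.054. As averages of their spots, Casp2, Casp6, Cradd and Fadd were all above 0 at 1 h and below 0 at 4 h. At 4 h, however, Casp6 averaged spots at 0.026 and -0.23, and Cradd spots at 0.11 and -0.20. Only for Casp2 did the spots have the same sign at 1 h and at 4 h.

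Of the genes in neither class, Bnipl, a relative of Bnip2, had the highest member value at 1 h. It gave 0.63, 0.036, -0.0016 and 0.56 at 1, 2, 4 and 6 h, or 4.29-fold and 3.59-fold above 0 on the first and the last array. These values rested on 1 spot. At 1 h it lay above all 15 measured neighbouring spots, the highest of which was 0.38. At 6 h the neighbouring spots reached 0.71, above Bnipl, and 7 of 15 passed 2-fold. Casp12, a caspase of the endoplasmic reticulum and inflammation, had 0.29, -0.12, -0.062 and 0.65. Its 6 h value of 4.51-fold averaged spots at 0.86 and 0.45, so both spots passed 2-fold there. As gene values, Apaf1, Bnipl and Casp12 therefore shared an order over time, with the first and last arrays above 0 and the middle ones near 0. For Casp12 the 1 h value came from 1 spot alone, which read -0.22 at 2 h and -0.27 at 4 h. The other Casp12 spot read -0.014 and 0.15 at those times. Choroid plexus markers were also high at 1 h, with 6 of 7 past 2-fold, a median of 0.49 and a range of -0.24 to 0.71. At 6 h 0 of 8 of these markers passed 2-fold and their median was -0.025. Their part in the 1 h values of the members was not tested.

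The inflammatory caspases Casp1 and Casp4 are neighbours of Casp12 on chromosome 9. Casp1, which matures interleukin 1 beta, had 0.13, 0.037, -0.0088 and 0.24, and Casp4, a sensor of bacterial lipopolysaccharide, had 0.0021, 0.056, -0.037 and 0.086. Neither gene value passed 2-fold on any array, and the gene values of all 3 neighbours were highest at 6 h. For each of the 3, 1 of 2 spots had no ratio at 1 h, so this order compares different spots. The Casp1 spot measured on all 4 arrays read 0.13, 0.00045, 0.018 and 0.084, highest at 1 h. The other Casp1 spot read 0.40 at 6 h. The Casp4 spot measured on all 4 arrays read 0.0021, 0.074, 0.045 and 0.13. Casp14, the caspase of the epidermis, had a ratio only at 2 h (-0.39) and 6 h (-0.044). Bcl2l10 had 0.30, -0.17, -0.043 and -0.25, with the 1 h value just under the limit. Bnip2 had 0.21, 0.069, -0.021 and 0.054, and Casp8ap2, a nuclear protein that binds Casp8, had 0.084, 0.094, -0.029 and -0.091.

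Set side by side, the pro-apoptotic members had medians of 0.096, 0.014, -0.063 and 0.050 on the arrays in order of time. The anti-apoptotic members had medians of -0.067, 0.00052, 0.10 and 0.046. At 1 h 9 of 15 pro-apoptotic and 4 of 13 anti-apoptotic genes were above 0, and at 4 h 5 of 16 and 9 of 14. Of all members, 20 of 35, 21 of 38, 14 of 37 and 24 of 38 were above 0 on the arrays in that order, against 50.4%, 49.7%, 49.8% and 48.6% of measured genes. The median of all genes was 0.0013 at 1 h and -0.00095 at 4 h. The order of the class medians was thus opposite at 1 and 4 h, and at 2 and 6 h the class medians were close to each other. The anti-apoptotic class counts each Bcl2a1 copy as a gene, although the copies are uncertain as separate readings. At 4 h Bcl2a1a, Bcl2a1b and Bcl2a1d were at 0.15, 0.37 and 0.35, so that class median and its count above 0 lean partly on them. Different spots of 1 gene differed with an SD, pooled over all genes of the array, of 0.225, 0.204, 0.168 and 0.329 at 1, 2, 4 and 6 h. This is the spread between spots of a gene and not the error of a class median. The difference between classes was not tested, as 1 array a time gives no error for it.

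**Figure D3:**
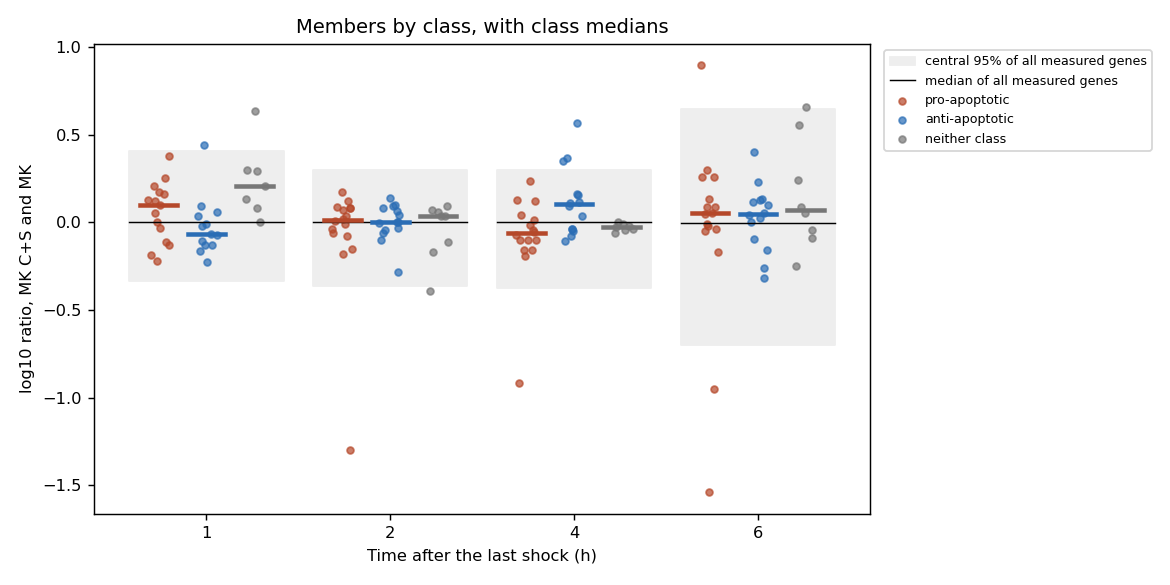
Log10 ratio (vertical axis) of each member at 1, 2, 4 and 6 h after the last shock, by class, with thick bars at class medians and a grey band for the central 95% of all measured genes. Class medians lie between -0.067 and 0.21 at all times, inside the band, and the points far below it are Diablo at 2, 4 and 6 h and Bcl2l11 at 6 h.

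Averaging the arrays asked whether any member differed between MK C+S and MK over the 4 times, and its error is the spread among the arrays. No member passed limma's moderated test after Benjamini-Hochberg adjustment over 8553 genes. The adjusted count was 0 of 35 members and 0% of all genes, and the lowest adjusted p among members was 0.427, for Diablo. Its mean was -0.88 (SD 0.794, n = 4 arrays), with a limma 95% interval of -1.53 to -0.22 and an unadjusted limma p of 0.0162. Bcl2a1b had a mean of 0.23 (SD 0.208, n = 4 arrays) with an adjusted limma p of 0.432, and Bnipl 0.31 (SD 0.335, n = 4 arrays) with 0.434. These 3 were the members at an unadjusted limma p under 0.05, or 3 of 35 against 11.4% of genes. Diablo was negative on 3 of 4 arrays, and Bcl2a1b and Bnipl were positive on 3 of 4. Without the 1 h array the Diablo mean was -1.25 with an adjusted limma p of 0.17. Bcl2l11 averaged -0.26 (SD 0.462, n = 4 arrays) and Apaf1 0.28 (SD 0.46, n = 4 arrays), with limma intervals that held 0. Without the 6 h array these means were -0.036 and 0.078, so both rested on that array. Means were above 0 for 25 of 35 members, against 46.1% of genes, and the median mean was 0.025 for members and -0.0095 for all genes.

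**Figure D4:**
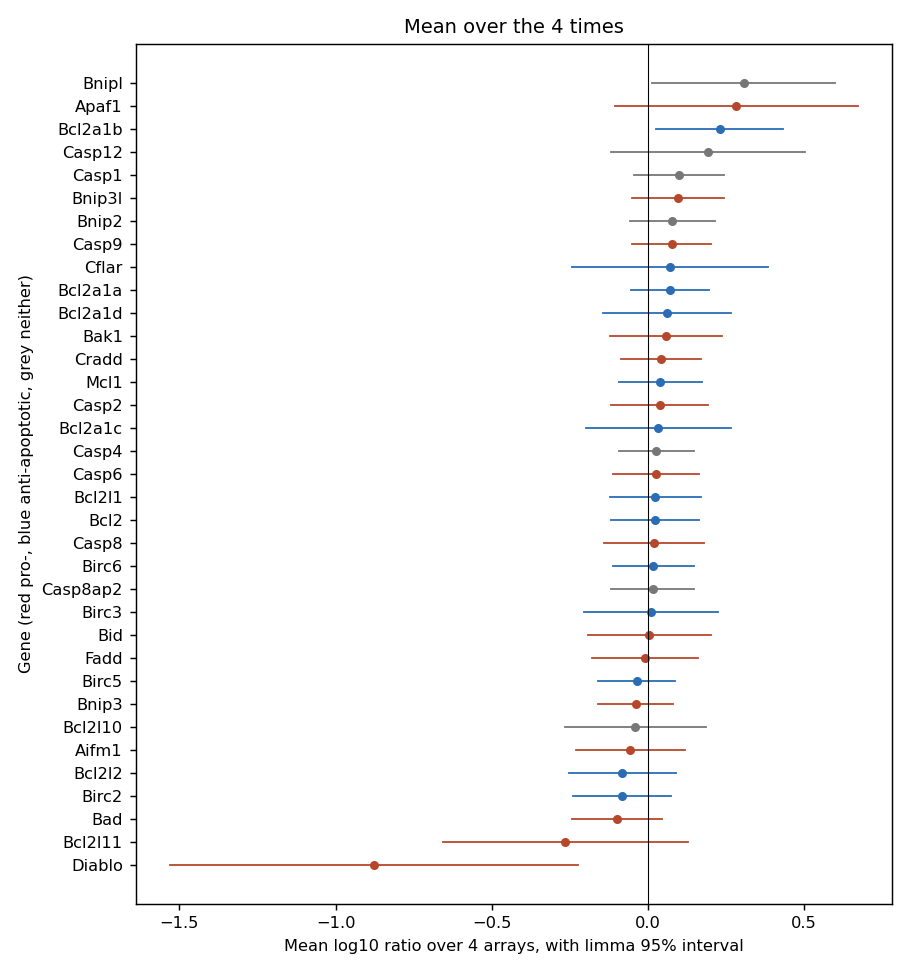
Mean log10 ratio over the 4 arrays (points) with limma's 95% interval (lines) for the 35 members with a value on every array, ordered by mean. The intervals of Diablo, Bcl2a1b and Bnipl leave out 0, before adjustment for 8553 genes, and the other 32 hold it.

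A slope on hours asked which ratios changed with time. Again 0 of 35 members passed limma's test after adjustment, as did 0% of all genes, and 3 of 35 had an unadjusted limma p under 0.05, against 14.6% of genes. Bcl2l11 had a slope of -0.19 log10 units per h (SE 0.0448) with an adjusted limma p of 0.153. Bcl2a1c had 0.10 per h (SE 0.0315, adjusted limma p 0.201), and Diablo -0.26 per h (SE 0.0976, adjusted limma p 0.28). The first 2 slopes compare times at which different sets of spots were measured, as given above. Without the 6 h array the Bcl2l11 slope was -0.048 and the Bcl2a1c slope 0.038, and without the 1 h array the Diablo slope was -0.061. Each thus rested mainly on 1 array.

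Different spots of a gene give the only repeat readings of these values. Of the members, 19 had 1 spot, 17 had 2 and 2 had 3 or more. All measured spots of a gene had the same sign for 8 of 12 such members at 1 h, 7 of 19 at 2 h, 10 of 19 at 4 h and 12 of 18 at 6 h. The shares over all genes were 50.9%, 49.4%, 52.1% and 47.8%. As about as many genes lay above 0 as below it, pairs of spots with unrelated signs would give shares of this size too. The pooled SD between spots of a member was 0.126, 0.172, 0.163 and 0.204 at 1, 2, 4 and 6 h. The widest ranges were 0.49 for Fadd at 1 h, 0.70 for Bcl2l2 at 2 h, 0.60 for Bcl2a1c at 4 h and 0.75 for Birc2 at 6 h. Of the 11 members past 2-fold, 8 had a single spot, Diablo and Apaf1 among them, and so had no second reading.

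**Figure D5:**
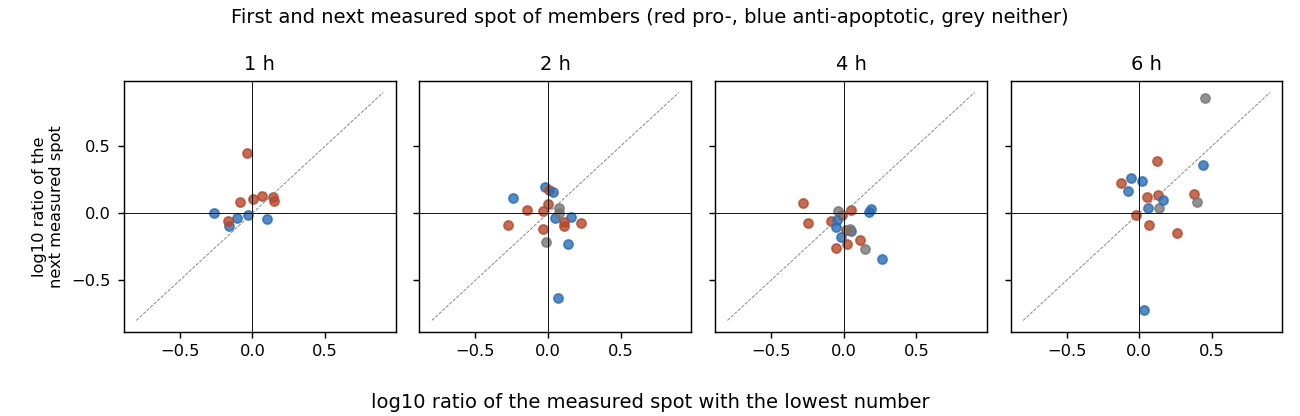
For members with 2 or more measured spots, the log10 ratio of the spot with the lowest number (horizontal axis) against that of the next measured spot (vertical axis), 1 panel per time, with a dashed line of equality. Points lie in all 4 quadrants at 2 h, where 7 of 19 members had spots of a single sign.

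Several of the large member values came from the end of the spot numbering. Spots numbered above 15470, the last 1 in 6 of all numbers and a boundary chosen after the values were seen, held 15 of the 60 member spots and at least part of the large values of 6 of the 11 members past 2-fold (Apaf1, Bcl2a1c, Bcl2l11, Bnipl, Casp12 and Diablo). Over all spots, 31.7% above this number and 24.1% at or below it passed 2-fold at 6 h, and the shares were 11.8% and 8.96% at 1 h, 11.3% and 7.26% at 2 h, and 13.2% and 6.96% at 4 h. The part of spot position in these values was not tested. Subtracting the median of 51 neighbouring spots left a Diablo mean of -0.80.

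Promoters are shown for Diablo, Apaf1 and Cflar, each with 1 annotated start, because they gave the lowest member value of all, the highest of all and the highest at 4 h. The 250 bases before each start are RefSeq sequence of build GRCm38.p6, 5′ to 3′ on the strand of the gene. Capitals mark matches, on either strand, to TGACG (the short site of CREB, a factor activated by neuronal calcium), to GGGCGG (the box of Sp1) and to TATAAA (the TATA box), where overlapping matches run together.
Diablo, chr5:123524165-123524414, minus strand: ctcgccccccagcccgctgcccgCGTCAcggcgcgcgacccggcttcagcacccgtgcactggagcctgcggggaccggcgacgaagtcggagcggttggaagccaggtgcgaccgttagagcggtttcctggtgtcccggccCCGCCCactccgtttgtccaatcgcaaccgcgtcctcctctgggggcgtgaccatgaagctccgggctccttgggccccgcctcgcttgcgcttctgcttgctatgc
Apaf1, chr10:91082744-91082993, minus strand: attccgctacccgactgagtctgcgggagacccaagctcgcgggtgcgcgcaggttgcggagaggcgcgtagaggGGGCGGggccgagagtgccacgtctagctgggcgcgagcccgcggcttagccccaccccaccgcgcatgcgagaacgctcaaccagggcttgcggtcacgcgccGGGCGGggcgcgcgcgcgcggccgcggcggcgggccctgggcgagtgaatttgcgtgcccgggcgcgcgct
Cflar, chr1:58711241-58711490, plus strand: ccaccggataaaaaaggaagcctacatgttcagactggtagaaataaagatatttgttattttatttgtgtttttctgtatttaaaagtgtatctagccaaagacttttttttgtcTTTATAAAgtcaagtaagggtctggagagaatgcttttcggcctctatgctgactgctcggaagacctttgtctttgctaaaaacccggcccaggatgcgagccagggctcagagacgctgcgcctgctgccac

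The Diablo and Apaf1 sequences are rich in G and C, at 70.4% and 75.6%, and the Cflar sequence is not, at 42.8%. Diablo held 1 short CREB site and 1 Sp1 box, Apaf1 held 2 Sp1 boxes, and Cflar held the TATA box on both strands as a single run. RefSeq listed 43 promoters for 34 of the 38 members. The CREB site was found in 27.9% of them, against 22.5% of 10732 promoters of genes on the array and 17.8% of all 32851 promoters. The Sp1 box was in 60.5%, against 48.4% and 32.7%, and the TATA box in 6.98%, against 9.87% and 12.4%. All of the Bcl2a1 promoters held the CREB site and the Sp1 box, as did that of Bcl2. The shares count each Bcl2a1 copy and each promoter of a gene separately. Both promoters of Birc2 and both of Casp4 held the CREB site, so the member share for it rests partly on related sequences. A match is a run of letters and no evidence of binding.

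Other genes of the same pathway numbered 72 in the list used, and 59 of them had a spot. At 1, 2, 4 and 6 h, 2 of 56, 6 of 59, 4 of 59 and 7 of 58 passed 2-fold, against 8.47%, 6.58%, 7.07% and 21.9% of all measured genes. None of the 55 with 4 values passed limma's adjusted test for the mean or for the slope. At an unadjusted limma p under 0.05 there were 8 of 55 for the mean, against 11.4% of all genes, and 5 of 55 for the slope, against 14.6%. Means were above 0 for 27 of the 55, against 46.1% of all genes. By group they were above 0 for 6 of 13 death receptors, ligands and adaptors, 4 of 11 genes of the mitochondrial arm, 3 of 7 caspase targets and nucleases, 9 of 11 genes of the p53 circuit and 5 of 13 others. Among death receptors and adaptors, Tnfrsf25, a receptor of T cells, had -0.29, 0.82, -0.18 and -0.42, above 0 at 2 h alone. Traf2, an adaptor that recruits Birc2 and Birc3 to receptors, had 0.11, -0.087, -0.27 and -0.49, and was lowest at 6 h as they were.

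On the mitochondrial route, Vdac1, the channel of the outer membrane, had 0.20, -0.31, -0.32 and 0.048, and Bok, a relative of Bax, had -0.10, -0.31, -0.36 and 0.021. Both were past 2-fold below 0 at 2 and 4 h and near 0 at 6 h. Bok is also a marker of CA3 neurons, and all 5 measured CA3 markers, Bok included, passed 2-fold below 0 at 4 h, with a median of -0.42 and a range of -0.55 to -0.36. Bok itself was the highest of them at 4 h. At 1, 2 and 6 h, 1, 3 and 2 of the 5 passed 2-fold below 0, with medians of -0.18, -0.31 and -0.23. The part of CA3 tissue in the Bok values was not tested. Dffa, which holds the DNA-cutting nuclease Dffb inactive until caspases cleave it, had -0.20, -0.020, 0.11 and 0.36. Dffb had 0.37 at 2 h and no ratio at 1 h.

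In the p53 circuit the median of the means was 0.13 over 11 tested genes, against -0.0095 for all genes. Trp73, a relative of p53, was positive on all 4 arrays at 0.24, 0.25, 0.44 and 0.29, with a mean of 0.30 and an adjusted limma p of 0.379 (unadjusted 0.00126). Cdkn1a (p21), which arrests the cell cycle, had -0.000060, 0.18, 0.087 and 0.38. Ei24, a p53 target of the endoplasmic reticulum, was negative throughout, at -0.27, -0.55, -0.28 and -0.30, with an adjusted limma p of 0.379. Phlda3, an Akt inhibitor induced by p53, was at 1.03 at 4 h and between -0.22 and -0.11 at the other times. Perp, a membrane protein induced by p53, had 0.33 at 1 h and between 0.051 and 0.094 later.

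Among the remaining genes, the survival kinase gene Akt2 had -0.97, -0.14, 0.032 and -0.84, past 2-fold below 0 on the first and last arrays, where Apaf1, Bnipl and Casp12 were highest. The chaperone partner Bag3 was at -0.39 at 6 h and between -0.032 and 0.072 earlier. Pdcd2 was negative throughout, at -0.18, -0.34, -0.20 and -0.14, and Pdcd6ip (Alix) was at 0.61 at 6 h and between -0.15 and 0.17 earlier. None of these means passed after adjustment.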

How the data were processed

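The authors deposited 1 log ratio per spot, read here as log10, for each of 4 arrays with MK C+S RNA in Cy5 and MK RNA in Cy3, per the labels. The sources used here give no scanner, normalization, log base, direction or number of animals per array, so p-values measure only the spread between arrays. The table had 16281 spots. Exact zeros, 7.39% to 22.7% of spots per array, were read as not measured, and each array was centred on the median of its measured spots, which lay between -0.0054 and 0.0055. Each deposited column had a median of 0 with its zeros. A platform annotation gave 1 gene for 13738 spots, several for 52 and none for 2491, and only spots with 1 gene were used. All 60 member spots matched RefSeq by Entrez identifier, and 0 symbols changed. Measured spots of a gene were averaged, which gave values for 9162, 10151, 10312 and 10102 genes at 1, 2, 4 and 6 h.

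A mean over the 4 times and a slope per h were fitted with limma 3.58.1 (R 4.3.3), two-sided, with Benjamini-Hochberg adjustment over the 8553 genes with 4 values. Both tests were checked on simulated data. The planted changes were larger than all member slopes, and larger than all member means but that of Diablo. The check therefore does not show whether smaller changes would be found. Members, classes and lists were chosen with earlier results of these data known. All members are given. Other pathway genes were named when past 2-fold on any array. Alternatives covered size threshold, log base, centring, spot summary, zeros, neighbouring spots, scaling, array weights, missing values, time covariate and leaving out each array.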

Additional observations from a re-analysis of the deposited data

How the results depend on the processing

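Counts of members past 2-fold depended on the size and the log base. At 1, 2, 4 and 6 h the main counts were 3, 2, 4 and 7. At 1.5-fold they were 11, 4, 6 and 14, and at 3-fold 1, 1, 2 and 5. Read as log2 they were 0, 1, 0 and 1, and read as natural logs 0, 1, 1 and 3. Counting each spot on its own gave 13 at 6 h. Over the alternatives, the pro-apoptotic median ran from 0.081 to 0.10 at 1 h, -0.011 to 0.014 at 2 h, -0.063 to -0.039 at 4 h and 0.0088 to 0.050 at 6 h. The anti-apoptotic median ran from -0.067 to -0.023, -0.0035 to 0.014, 0.079 to 0.12 and 0.0029 to 0.046 at those times, so both had no fixed sign at 2 h. The count of members passing limma's adjusted test stayed at 0 for the mean under all 11 alternatives. For the slope it stayed at 0 except without the 4 h array, where it was 1. That member was Bcl2l11 (slope -0.21, adjusted limma p 0.0102), on a fit that called 399 of all genes. Over all alternatives, adjusted limma p ran from 0.0102 to 0.817 for that slope and from 0.17 to 0.709 for the Diablo mean. Every mean and slope checked kept its direction, and the Diablo mean ranged from -1.25 to -0.65. No paired analysis was possible because each time had 1 array. Signal over background could not be judged, since the table holds ratios only.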
